A study of Mus musculus with 6 samples.

Results

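Homeostatic microglia markers are genes that resting microglia, the resident macrophages of brain tissue, express at high level. The 9 members are P2ry12, Tmem119, Cx3cr1, Csf1r, Siglech, Gpr34, Olfml3, Trem2 and Tyrobp, chosen by gene symbol, and all 9 were found among the 24421 genes of the table. They were measured in RNA of cells sorted from mouse cortex as astrocytes. In CD51-Flp mice, cells that express CD51 (integrin alpha V) make Flp recombinase, and a virus injected postnatally, AAV-GFAP-FSF-hM3D-mCherry, lets those with an active GFAP promoter express the receptor hM3D and the red protein mCherry. The receptor hM3D couples to Gq and responds to the designer drug clozapine-N-oxide (CNO). The CNO group was injected with CNO and the saline group with saline, 2 injections daily over postnatal days 7 to 21. Cells with mCherry were then collected from cortex by sorting on day 21. All animals carried the Flp allele and the virus, so no group shows the effect of CNO without the receptor. Each group has 3 libraries, CNO 1, 2 and 3 and saline 3, 4 and 5. Whether each library is 1 animal or a pool is not in the labels, so the p-values cover only the spread among these libraries, which may be technical.

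Microglia enter the brain early in embryonic life and depend on signalling through the CSF1 receptor, encoded by Csf1r, for survival. Their resting state is marked by receptors that sense the tissue, among them P2RY12 for extracellular nucleotides and CX3CR1 for the neuronal chemokine fractalkine, and it is kept up by TGF-beta. In injury and neurodegeneration many of these genes fall, while TREM2, which signals through the adaptor DAP12 encoded by Tyrobp, is known for driving a phagocytic, lipid-handling state.

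The libraries held 3908076 to 19224186 reads in CNO and 12010901 to 19052161 in saline, and CNO 1 was the shallowest. Genes with at least 1 read numbered 8618, 12820 and 10883 in CNO 1, 2 and 3, against 14311, 14491 and 14141 in saline 3, 4 and 5. CNO 2 was below every saline library here although it had the most reads. Low values and zeros of single genes in CNO stand beside this lower count across all genes, whose cause was not tested. Values below are read counts divided by the authors' size factor of each library, called normalized counts, and 1 read was worth 4.23 of them in CNO 1. Although the sorted cells are labelled astrocytes, microglial RNA was present. The 9 members took 0.365% to 0.897% of reads in the CNO libraries and 0.903% to 1.26% in the saline libraries. The 13 astrocyte markers took 1.03% to 3.83% in CNO and 2.04% to 3.06% in saline, and the 12 oligodendrocyte markers 11.1% to 24.5% in CNO and 5.33% to 7.87% in saline. Gfap, the astrocyte gene whose promoter the virus carries, stood at 4.23, 952 and 59.2 in CNO 1, 2 and 3, against 1307, 374 and 507 in saline 3, 4 and 5, which in CNO 1 was a single read. Gfap was the exception among the 13 astrocyte markers, with a log2 fold change of -3.23 in the limma fit described below. The other 12 markers were above 0 in that fit, and the median of the list was 0.42. In bulk RNA, fewer microglia and less RNA per microglial cell cannot be told apart. Libraries with Xist, the female-specific RNA, over 10000 normalized counts numbered 2 in CNO and 1 in saline, so RNA of female animals was unevenly spread over the groups.

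No homeostatic marker passed the test between CNO and saline. In limma, on log2 of the normalized count plus 1, 0 of 9 members had an adjusted p under 0.05 (0.0154% of the 13028 tested genes did), and 0 of 9 had an unadjusted p under 0.05 (9.53% of tested genes, 7.25% lower and 2.28% higher in CNO). With edgeR, limma-voom and DESeq2 the count of adjusted calls was also 0 of 9. At an unadjusted p under 0.05, 1 member, Trem2, passed in DESeq2, as did 11.4% of tested genes, and the count was 0 in edgeR (9.33% of tested genes) and limma-voom (11.3%). Log2 fold changes of CNO over saline were below 0 for 8 members and above 0 for Csf1r alone, and ran from -1.39 for Trem2 to 0.12 for Csf1r. Their median was -0.40. The median over all tested genes was -0.89, and over the 7395 tested genes with a read in every library, which include all 9 members, it was -0.088. Trem2 was the only member whose groups did not overlap on this scale, with all CNO libraries below all saline libraries, a pattern that 12.5% of tested genes shared. Among the 7395 tested genes with a read in every library, 498 had this pattern and 588 the reverse. In the same 7395 genes, 133 were lower and 292 higher in CNO at an unadjusted p under 0.05 in limma. No member had all CNO libraries above saline (4.57% of tested genes), and 17.1% of tested genes were without overlap in either direction.

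**Figure D1:**
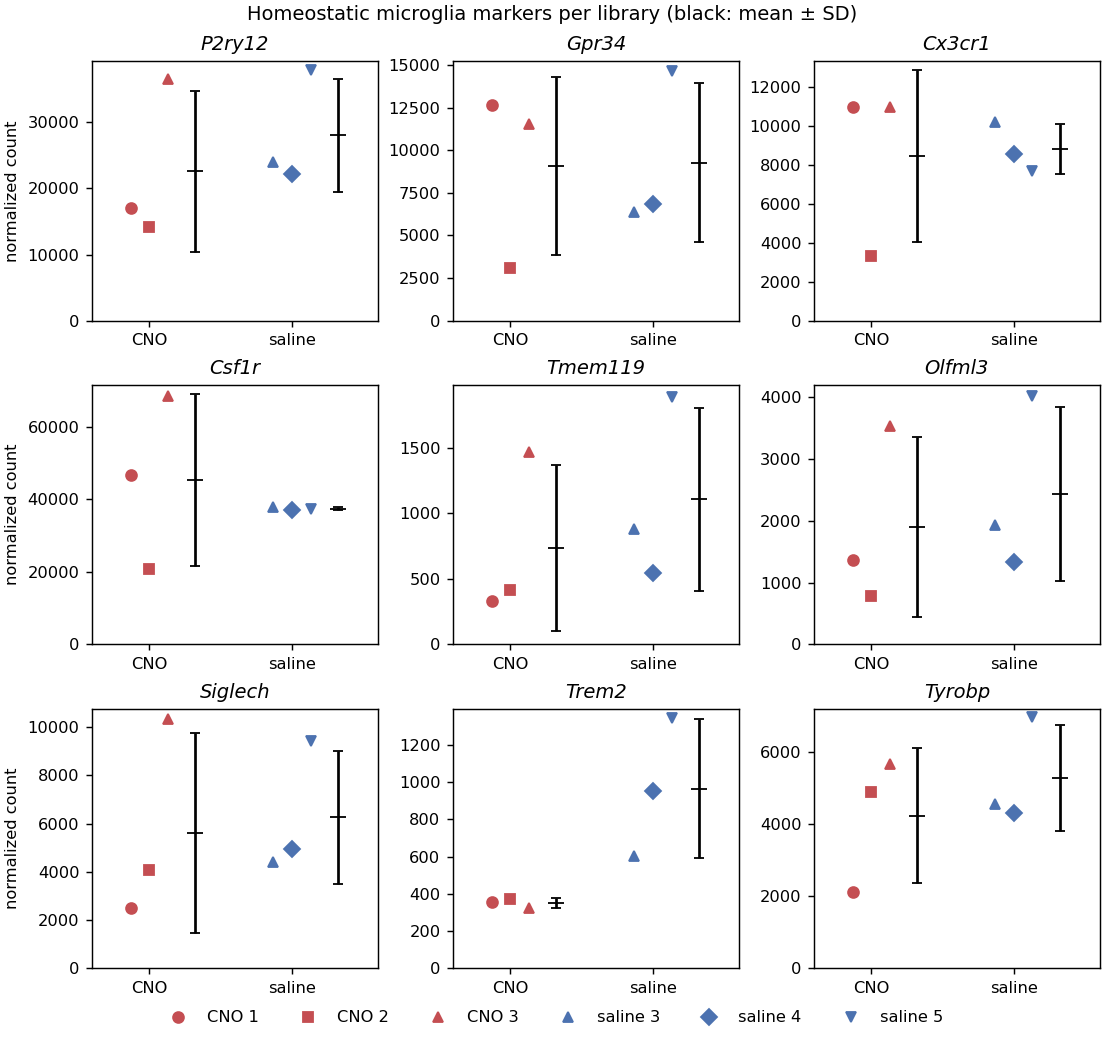
Normalized counts (y axis, from 0) of the 9 markers in the CNO libraries (red, left) and the saline libraries (blue, right), 1 symbol per library, with the mean and SD of each group in black. Trem2 lies at 323 to 372 in CNO and 601 to 1345 in saline, while the groups of the other markers overlap.

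Promoter sequences were at hand in RefSeq (GRCm38.p6) for 5 of the 9 members, and 3 are shown. Trem2 is shown because its groups did not overlap, P2ry12 because its profile over libraries lay closest to the mean of the members, and Cx3cr1 because its profile lay farthest from that of Trem2. Each run gives the 250 bases before the RefSeq transcript start, 5′ to 3′ on the strand of the gene, and capitals mark the PU.1 core.
Trem2: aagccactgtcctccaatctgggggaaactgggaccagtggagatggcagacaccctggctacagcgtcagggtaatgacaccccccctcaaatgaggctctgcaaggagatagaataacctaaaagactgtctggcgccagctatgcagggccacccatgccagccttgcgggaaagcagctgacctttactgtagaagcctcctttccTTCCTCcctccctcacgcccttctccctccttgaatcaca
P2ry12: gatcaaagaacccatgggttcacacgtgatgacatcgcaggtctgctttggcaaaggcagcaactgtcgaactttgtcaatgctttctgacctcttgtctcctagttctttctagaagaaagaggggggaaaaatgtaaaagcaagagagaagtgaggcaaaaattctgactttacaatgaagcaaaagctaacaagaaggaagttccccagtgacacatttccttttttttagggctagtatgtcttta
Cx3cr1: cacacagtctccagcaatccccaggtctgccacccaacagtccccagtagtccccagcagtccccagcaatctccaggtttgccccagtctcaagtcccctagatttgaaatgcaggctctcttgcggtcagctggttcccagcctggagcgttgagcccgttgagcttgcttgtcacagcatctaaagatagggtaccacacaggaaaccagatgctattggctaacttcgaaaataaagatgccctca
The windows are chr17:48346151-48346400 on the plus strand for Trem2, chr3:59262986-59263235 on the minus strand for P2ry12 and chr9:120068297-120068546 on the minus strand for Cx3cr1. Both strands were searched for the core of the site of PU.1, the lineage factor of macrophages, GAGGAA. It was found in the Trem2 window, on the opposite strand. Read along the strand of the gene, the marked stretch begins 40 bases before the transcript start. The core is held by 23.3% of all 32851 promoter windows of this length. These letters were in no window of P2ry12, Cx3cr1, Olfml3 and Siglech.

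For the receptors of soluble signals, the SD among CNO libraries exceeded the difference between the group means. P2ry12 (chromosome 3 from 59216272 to 59262871, GRCm38) encodes a Gi-coupled receptor for ADP that steers microglial processes to sites of ATP release. Its normalized counts were 17031, 14188 and 36499 in CNO 1, 2 and 3, against 23932, 22242 and 37908 in saline 3, 4 and 5. CNO 1 and 2 lay below the saline range, and CNO 3 within it, next to saline 5. The means were 22572 ± 12144 in CNO and 28027 ± 8599 in saline (SD, n = 3 each), a log2 fold change of -0.40 ± 0.38 (SE; limma adjusted p = 0.7) with a 95% interval of -1.23 to 0.43. Gpr34 (chromosome X from 13632089 to 13640858) encodes a related receptor, with lysophosphatidylserine as a ligand. Its means were 9077 ± 5235 in CNO and 9272 ± 4659.8 in saline. It stood at 12639.8, 3067 and 11525 in CNO 1, 2 and 3, against 6355, 6816 and 14646 in saline 3, 4 and 5. The lowest library was CNO 2 and the highest saline 5, and CNO 1 and 3 lay between saline 4 and saline 5. The log2 fold change was -0.17 ± 0.56 (SE; limma adjusted p = 0.917), with an interval of -1.39 to 1.05. Cx3cr1 (chromosome 9 from 119901616 to 120069879) encodes the fractalkine receptor. It stood at 11009, 3346 and 11015 in CNO 1, 2 and 3, against 10217, 8558 and 7712 in saline 3, 4 and 5. CNO 1 and 3 were above every saline library and CNO 2 was below them, so the means, 8456 ± 4426 in CNO and 8829 ± 1274 in saline, lay close together. Its log2 fold change was -0.24 ± 0.47 (SE; limma adjusted p = 0.85), with an interval of -1.28 to 0.79.

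Csf1r (chromosome 18 from 61100598 to 61132149), the receptor tyrosine kinase for CSF1 and IL-34, differed in spread between the groups. It stood at 46840.4, 20814 and 68380.2 in CNO 1, 2 and 3, against 37831, 37091 and 37261 in saline 3, 4 and 5. The saline libraries were nearly equal, with a coefficient of variation of 1.04%, while the CNO libraries lay on both sides of them, with 52.5%. The means were 45345 ± 23818 in CNO and 37394 ± 388 in saline, and the log2 fold change was 0.12 ± 0.37 (SE; limma adjusted p = 0.915), with an interval of -0.70 to 0.94. Its direction turned with quantile, TMM and total read scaling, array weights and limma-voom. A wider spread in CNO was not particular to Csf1r. The coefficient of variation was larger in CNO for every member except Trem2, as for Cx3cr1 with 52.3% in CNO and 14.4% in saline. Over all tested genes, the array weights, lower for more variable libraries, were 0.257, 0.740 and 0.456 in CNO 1, 2 and 3. They were 2.44, 2.59 and 1.82 in saline 3, 4 and 5.

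Tmem119 (chromosome 5 from 113793729 to 113800516), a membrane protein used to tell microglia from other macrophages, had a coefficient of variation of 86.2% in CNO and 63.3% in saline. It stood at 329.6, 412 and 1469 in CNO 1, 2 and 3, against 884, 545 and 1893 in saline 3, 4 and 5, which in CNO 1 rested on 78 reads. CNO 1 and 2 were below the saline range and CNO 3 was inside it. The log2 fold change was -0.73 ± 0.82 (SE; limma adjusted p = 0.739), with an interval of -2.52 to 1.06. Olfml3 (chromosome 3 from 103722222 to 103738001) encodes a secreted olfactomedin-like glycoprotein. It stood at 1369, 786 and 3543 in CNO 1, 2 and 3, against 1940.5, 1341 and 4023 in saline 3, 4 and 5, with only CNO 2 below the saline range. Its log2 fold change was -0.49 ± 0.67 (SE; limma adjusted p = 0.785), with an interval of -1.96 to 0.99. Tmem119 and Olfml3 both reached their highest values in saline 5 and CNO 3, as did P2ry12, Siglech and Tyrobp.

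The DAP12 group holds 2 receptors and their adaptor. Trem2 (chromosome 17 from 48346401 to 48354147) encodes an immunoglobulin-like receptor for lipids and lipoproteins. It had 355, 372 and 323 in CNO 1, 2 and 3, against 601, 953 and 1345 in saline 3, 4 and 5. These values rest on 84, 503 and 333 reads in CNO and 1061, 1190 and 2673 in saline. The CNO libraries lay close together, with a coefficient of variation of 7.12% against 38.5% in saline, and the ratio of means was 0.362. The means were 350.1 ± 24.9 in CNO and 966 ± 372 in saline (SD, n = 3 each). The log2 fold change was -1.39 ± 0.74 (SE; limma adjusted p = 0.558) with an unadjusted p of 0.0857, and its interval of -3.01 to 0.23 included 0. In the other tools its fold change was -1.59 in edgeR (adjusted p = 0.584), -1.49 in limma-voom (adjusted p = 0.535) and -1.46 in DESeq2 (adjusted p = 0.344).

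Siglech (chromosome 7 from 55768178 to 55778925), a sialic acid-binding receptor that also marks plasmacytoid dendritic cells in mice, stood at 2489, 4058 and 10325 in CNO 1, 2 and 3, against 4392, 4961 and 9417 in saline 3, 4 and 5. CNO 1 and 2 were below the saline range and CNO 3 was above it. The log2 fold change was -0.33 ± 0.55 (SE; limma adjusted p = 0.823), with an interval of -1.52 to 0.87. Tyrobp (chromosome 7 from 30413760 to 30417585), the adaptor through which both receptors signal, stood at 2117, 4898 and 5681 in CNO 1, 2 and 3, against 4561, 4309 and 6968 in saline 3, 4 and 5. Only CNO 1 lay outside the saline range, below it, on 501 reads. Its log2 fold change was -0.41 ± 0.48 (SE; limma adjusted p = 0.75), with an interval of -1.45 to 0.64. Counted against the adaptor, Trem2 reads per Tyrobp read were 0.168, 0.0760 and 0.0569 in CNO 1, 2 and 3, against 0.132, 0.221 and 0.193 in saline 3, 4 and 5. CNO 2 and 3 were below all saline libraries and CNO 1 was within their range, so the groups overlapped.

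**Figure D2:**
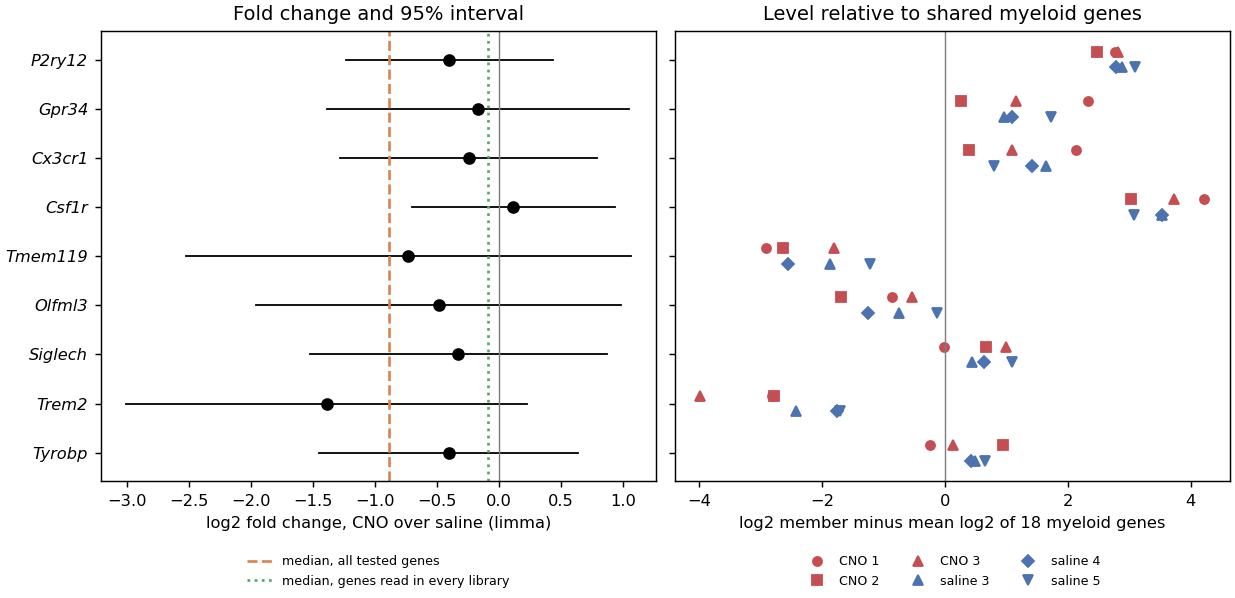
Left, log2 fold change of CNO over saline from limma (x axis) with its 95% interval for each marker, beside the median of all tested genes (dashed, -0.89) and of genes read in every library (dotted, -0.088). Right, log2 level of each marker minus the mean log2 level of 18 other myeloid genes (x axis) per library, CNO in red above saline in blue. All 9 intervals include 0, and in the right panel the groups of Trem2 alone stand apart.

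The profiles of the members over the libraries differed. Each gene's log2 values were centred on its own mean over the 6 libraries. The mean of the 9 centred profiles was -0.40, -0.81 and 0.53 in CNO 1, 2 and 3 and 0.013, -0.072 and 0.73 in saline 3, 4 and 5. CNO 2 was below the saline range for 8 members, CNO 1 for 5 and CNO 3 for 1, Trem2. CNO 1 exceeded the saline range for 2 members, Csf1r and Cx3cr1, and CNO 3 for 3, these and Siglech. CNO 1 and CNO 2 differed in which members were low. In CNO 1 the low ones were P2ry12, Tmem119, Siglech, Trem2 and Tyrobp, while Olfml3 and Gpr34 were within the saline range and Cx3cr1 and Csf1r above it. In CNO 2 the exception was Tyrobp, within the saline range. Saline 5 was the highest of all 6 libraries for 6 members.

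Likeness was measured as the mean absolute gap between centred log2 profiles over the 6 libraries. Cx3cr1 and Csf1r were nearest to each other, with a gap of 0.242, as were Tmem119 and Olfml3 (0.253) and Siglech and Tyrobp (0.276). Trem2 was the farthest from the mean profile of the members (0.539) and P2ry12 the nearest (0.0517), although the mean includes the gene itself. Among 8146 genes outside the lists with a mean of at least 100, the 5 nearest to the mean profile were Cyb5b (0.0644), Matr3 (0.162), Saraf (0.177), Rp2h (0.178) and Scoc (0.179). These gaps are a description over 6 libraries.

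**Figure D3:**
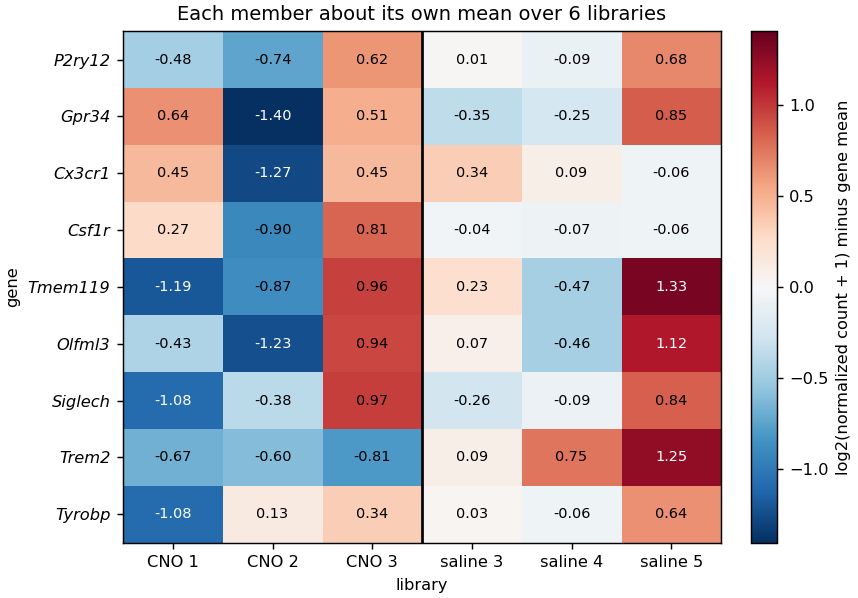
Log2 of the normalized count plus 1 of each marker (rows) minus its own mean over 6 libraries, per library (columns, CNO left of the line and saline right of it), with red above and blue below the mean. CNO 2 lies below the mean for 8 markers, CNO 3 is above it for 8 markers, with Trem2 below, and saline 5 is above it for 7 markers and at most 0.06 below it for Cx3cr1 and Csf1r.

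Scaling to the library total gave a lower mean in CNO for every member. As reads per 1000000 of each library's total (RPM), all 9 members averaged lower in CNO, and 4 had all CNO libraries below all saline libraries, beside 21.3% of tested genes. These were P2ry12, Cx3cr1, Trem2 and Tyrobp. P2ry12 averaged 1409 ± 685 RPM in CNO and 2898 ± 916 in saline, and Tyrobp 272 ± 124 in CNO and 546 ± 157 in saline (SD, n = 3 each). With this scaling in limma the median log2 fold change of the members was -1.10 and that of all tested genes -1.52. At an unadjusted p under 0.05 stood 3 of 9 members, P2ry12, Trem2 and Tyrobp, beside 13.7% of tested genes, and 0 members passed (smallest adjusted p = 0.336). Trem2 had a log2 fold change of -2.09 ± 0.74 there. With quantile scaling, which gives all libraries 1 distribution of values, these medians were -0.999 for the members and -0.078 for all tested genes, 4 members had an unadjusted p under 0.05, beside 7.64% of tested genes, and again 0 passed (smallest adjusted p = 0.648). The 4 were P2ry12, Cx3cr1, Csf1r and Tyrobp, without Trem2, and all were below 0 there, Csf1r at -0.81. The side of the median of all tested genes on which the members lay depended on the scaling, the tool and the gene filter. Of the 9 members, 1 (Trem2) lay below that median in the limma fit described first, and 1 with total read scaling. Below it lay 9 with quantile scaling, and 8 in edgeR with the same filter, in DESeq2, and in limma when the genes tested were those read in each library. The share of reads taken by oligodendrocyte markers was higher in every CNO library than in every saline library. Oligodendrocyte markers took 11.1%, 24.5% and 18.8% in CNO 1, 2 and 3, and the members 0.570%, 0.365% and 0.897%. The part of oligodendrocyte reads in the lower RPM values was not tested. Summed over the members, normalized counts were 98293 ± 48541 in CNO and 99568 ± 18813 in saline, and these groups overlapped.

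**Figure D4:**
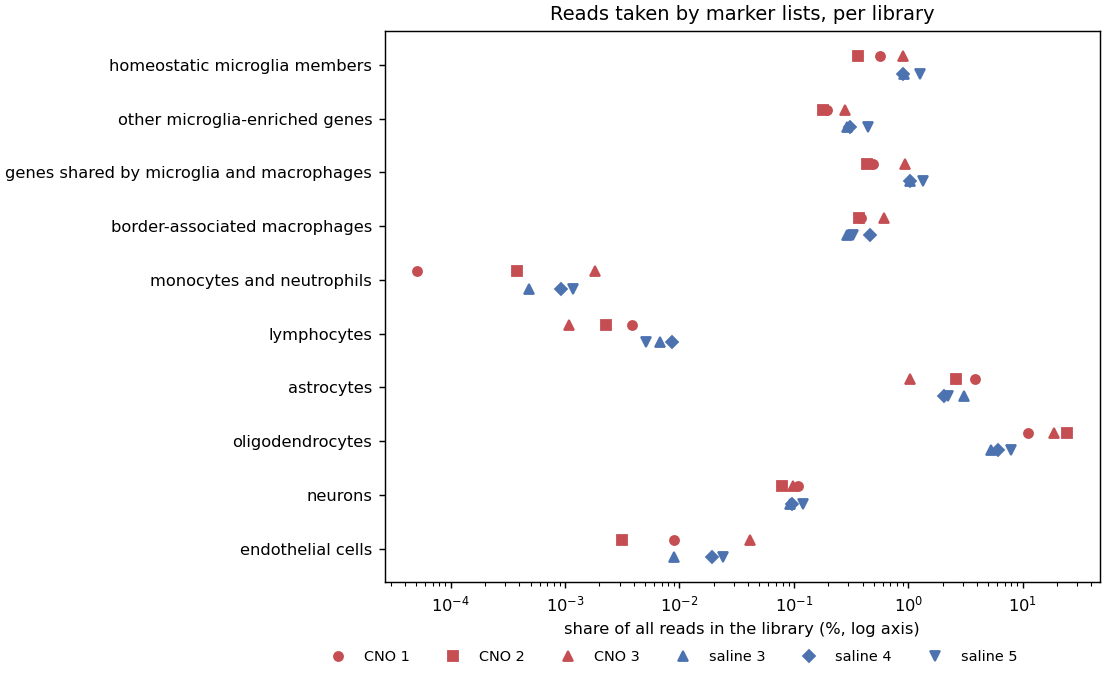
Share of all reads (x axis, %, log scale) taken by the 9 markers and by other cell type lists in each library, CNO in red above saline in blue. The homeostatic markers lie at 0.365% to 0.897% in CNO and 0.903% to 1.26% in saline, and oligodendrocyte markers at 11.1% to 24.5% in CNO and 5.33% to 7.87% in saline.

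Levels between genes were compared as RPKM, reads per kilobase of the principal GENCODE transcript per 1000000 reads. P2ry12 was first in both groups, at 601 ± 292 in CNO and 1236 ± 391 in saline (SD, n = 3 each). Csf1r followed in CNO and Tyrobp in saline. Csf1r had 597 ± 283 in CNO and 821 ± 5.16 in saline, and Tyrobp had 482 ± 220.3 in CNO and 968 ± 278 in saline. The library ranges of these 3 overlapped in both groups, except that all P2ry12 values in saline were above those of Csf1r. Next came Gpr34 in both groups with 267 ± 143 in CNO and 459.9 ± 236 in saline, then Siglech with 165 ± 114 in CNO and 303 ± 136 in saline and Cx3cr1 with 116 ± 55.3 in CNO and 203 ± 26.1 in saline, and the ranges of neighbours in this order overlapped apart from Csf1r and Gpr34 in saline. All values of Olfml3, Trem2 and Tmem119 lay below all of Cx3cr1 in each group. Trem2 had 20.6 ± 3.16 in CNO and 92.0 ± 36.4 in saline, Tmem119 20.4 ± 16.6 in CNO and 51.1 ± 32.8 in saline and Olfml3 21.5 ± 15.5 in CNO and 46.1 ± 27.1 in saline. The ranges of these 3 overlapped in both groups.

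Each member was also taken relative to the mean log2 level of 18 genes shared by microglia and macrophages, those of a list of 20 with a read in every library. The 2 left out, Aif1 and Itgb2, had no read in CNO 1. Irf8, which was itself lower in CNO without overlap, is among the 18. As other macrophages share these genes, their mean is not a measure of microglial RNA alone. That mean was 11.29, 11.32 and 12.33 in CNO 1, 2 and 3 and 11.67, 11.65 and 12.11 in saline 3, 4 and 5. Relative to it, Trem2 was at -2.82, -2.78 and -3.99 in CNO and -2.43, -1.75 and -1.72 in saline on the log2 scale. The CNO values were all lower, with a mean difference of -1.23 (exact permutation test, 2-sided p = 0.1, the smallest that 3 against 3 libraries can give). P2ry12, relative to the same genes, averaged 2.69 ± 0.19 in CNO and 2.92 ± 0.16 in saline, and Csf1r 3.66 ± 0.60 in CNO and 3.38 ± 0.27 in saline. These and the other 6 members overlapped between groups, with differences from -0.57 for Tmem119 to 0.28 for Csf1r and exact p from 0.2 to 1. With 9 other microglia-enriched genes in place of the 18, the difference of Trem2 was -0.99 and its groups overlapped (exact permutation p = 0.2).

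Of the other microglia-enriched genes, 12 of 12 were tested and 0 passed in limma, with 0 higher and 1 lower at an unadjusted p under 0.05, and the median log2 fold change was -0.68. The shares of all tested genes were 2.28% higher and 7.25% lower at that p, and 4.57% higher and 12.5% lower without overlap. Genes named from each list were mostly those with its smallest p. Over all lists, edgeR with the same filter called 0 genes. Beyond oligodendrocyte genes, limma-voom called 0, DESeq2 called 2, Plcg2 and Cst7, and edgeR without a filter called 1, Entpd1. Sall1, a transcription factor that keeps microglial identity, had 478, 462 and 852 in CNO 1, 2 and 3, against 1854, 1721 and 2443 in saline 3, 4 and 5, with all CNO libraries lower. Its log2 fold change was -1.79 ± 0.61 (SE; limma adjusted p = 0.488). Of the genes shared by microglia and macrophages, 20 of 20 were tested and 0 passed in limma, with 0 higher and 2 lower at an unadjusted p under 0.05, and the median was -0.20. Irf8, a transcription factor of the myeloid lineage, averaged 863 ± 583 in CNO and 2221 ± 704 in saline without overlap (log2 fold change -1.58 ± 0.69, SE, limma adjusted p = 0.522). Spi1, which encodes PU.1, averaged 664 ± 381 in CNO and 595 ± 523 in saline, Itgam, the CD11b integrin, 6165 ± 3325 in CNO and 6153 ± 860.3 in saline, Aif1, which encodes IBA1, 158 ± 171 in CNO and 383 ± 258 in saline, and C1qa, a complement C1q chain, 1875 ± 1033 in CNO and 1264 ± 613 in saline, all with overlap.

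Of the ligands, Csf1 was the one with separated groups. Among CSF1 receptor ligands and pathway genes 12 of 12 were tested and 0 passed in limma, with 1 higher and 3 lower at an unadjusted p under 0.05, and the median was -1.11. All tested genes had 2.28% higher and 7.25% lower at that p, and 4.57% higher and 12.5% lower without overlap. Csf1, which many brain cells make, stood at 3571, 4331 and 4468 in CNO 1, 2 and 3, against 1843, 1975 and 2466 in saline 3, 4 and 5. All CNO libraries were higher, with a log2 fold change of 0.98 ± 0.43 (SE; limma adjusted p = 0.522). In RPM its groups overlapped. Il34, the second ligand of the receptor, was near 0, with reads in 1 CNO and 1 saline library. Cx3cl1, the fractalkine gene, was also near 0, at 4.53 ± 7.84 in CNO and 25.7 ± 36.1 in saline. Among purinergic and fractalkine genes 11 of 11 were tested and 0 passed in limma, with 1 higher and 1 lower at an unadjusted p under 0.05, and the median was -0.43. Entpd1, the ectoenzyme CD39 that breaks ATP down toward AMP, stood at 5709, 2224 and 114928 in CNO 1, 2 and 3, against 3356, 3519 and 4016 in saline 3, 4 and 5, so 1 library, CNO 3, set its mean. edgeR without a filter called it higher (adjusted p = 0.022), limma did not (adjusted p = 0.616), and DESeq2 gave it no p. P2rx7, an ATP-gated channel, averaged 11725 ± 7100.2 in CNO and 4258 ± 1156 in saline with overlap.

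Of the TREM2 and DAP12 pathway genes 16 of 18 were tested and 0 passed in limma, with 1 higher and 1 lower at an unadjusted p under 0.05, and the median was -0.81. Beside these counts, 2.28% of tested genes were higher and 7.25% lower at that p, and 12.5% were lower without overlap. Plcg2, a phospholipase downstream of Syk, stood at 84.5, 94.7 and 80.5 in CNO 1, 2 and 3, against 646, 493 and 748 in saline 3, 4 and 5. Its CNO libraries were all lower, and so were those of Trem2. The log2 fold change of Plcg2 was -2.83 ± 0.99 (SE; limma adjusted p = 0.488), and DESeq2 called it lower (adjusted p = 0.0125), a call that 1.86% of tested genes received in either direction. Syk, the kinase that DAP12 recruits, averaged 199 ± 290.2 in CNO and 531 ± 34.2 in saline, with CNO 3 inside the saline range. Apoe, an apolipoprotein that TREM2 binds and astrocytes also make, averaged 31349 ± 10439.6 in CNO and 17230.0 ± 5595 in saline with overlap (log2 fold change 0.86 ± 0.34, SE, limma adjusted p = 0.496). Of the TGF-beta programme genes 11 of 11 were tested and 0 passed in limma, with 0 higher and 0 lower at an unadjusted p under 0.05, and the median was -0.47. Tgfb1 averaged 987 ± 443 in CNO and 705 ± 381 in saline and its receptor Tgfbr1 4249 ± 2140.0 in CNO and 7815 ± 2002 in saline, both with overlap. Itgav, the gene of CD51, whose integrin activates latent TGF-beta, averaged 4023 ± 336 in CNO and 4759 ± 741 in saline with overlap.

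Disease-associated microglia are a state that depends in part on Trem2. Of their genes 18 of 18 were tested and 0 passed in limma, with 3 higher and 2 lower at an unadjusted p under 0.05, and the median was -0.73. For all tested genes the shares were 2.28% higher and 7.25% lower at that p, and 4.57% higher and 12.5% lower without overlap. Igf1, a growth factor, stood at 7243, 4516 and 4307 in CNO 1, 2 and 3, against 1963, 1983 and 2559.7 in saline 3, 4 and 5, and all CNO libraries were higher, although not in RPM (log2 fold change 1.27 ± 0.44, SE, limma adjusted p = 0.488). Cst7, a cystatin, had no read in the CNO libraries and 199.5, 3.20 and 56.9 normalized counts in saline 3, 4 and 5. It did not pass in limma (adjusted p = 0.488) and was called lower by DESeq2 (adjusted p = 0.0465). Itgax, which encodes CD11c, had 1.73 ± 2.99 in CNO and 55.4 ± 37.8 in saline, without overlap. Of the ex vivo activation genes, which cell dissociation can induce in microglia, 18 of 18 were tested and 0 passed in limma, with 0 higher and 3 lower at an unadjusted p under 0.05, and the median was -0.35. Ccl3, a chemokine of activated microglia, averaged 4147 ± 1189 in CNO and 9443 ± 2722 in saline without overlap (log2 fold change -1.19 ± 0.40, SE, limma adjusted p = 0.488).

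Several members are shared with other macrophages, so markers of those cells are given beside them. Of the border-associated macrophage genes 12 of 12 were tested and 0 passed in limma, with 4 higher and 0 lower at an unadjusted p under 0.05, and the median was 0.32 against the -0.40 of the homeostatic markers. Over all tested genes 2.28% were higher and 7.25% lower at that p, and 4.57% were higher without overlap. The list's summed level was 53249 to 101733 normalized counts in CNO and 28693 to 44624 in saline, without overlap, and its share of reads, 0.374% to 0.613% in CNO and 0.291% to 0.464% in saline, overlapped. Mrc1, the mannose receptor, averaged 38566 ± 15417 in CNO and 17603 ± 3563 in saline and Pf4, a chemokine of these cells, 4989 ± 630.4 in CNO and 1732 ± 752 in saline, with all CNO libraries higher on the normalized scale, not in RPM, and adjusted p = 0.488 for each in limma. Their part in the levels of Csf1r, Cx3cr1, Trem2 and Tyrobp was not tested. Blood cell lists were low. Monocyte and neutrophil genes summed to 8.45 to 302 in CNO and 48.2 to 112 in saline, with S100a8, S100a9, Retnlg, Camp and Chil3 at 0 reads in all 6 libraries. Lymphocyte genes summed to 180.4 to 642 in CNO and 493 to 823 in saline, mostly Cd4, which macrophages can also carry, with Cd3e, Cd79a, Nkg7 and Ncr1 at 0 throughout. Dendritic cell genes summed to 54.8 to 209.5 in CNO and 38.8 to 164 in saline, with Clec9a, Ccr7 and Ly6d at 0 throughout. Ccr9 and Cox6a2 had no read in the CNO libraries and reads in every saline library. Of the 5 tested genes of this list, 0 were higher and 2 lower at an unadjusted p under 0.05 in limma. Without overlap 2 were lower, beside 12.5% of all tested genes. Siglech, itself a marker of a dendritic type, averaged 5624 ± 4146 in CNO and 6257 ± 2752 in saline.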

How the data were processed

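RNA of sorted cells was sequenced in 6 libraries, from 10 ng of total RNA each per the labels' protocols. The submitters' processing notes name Trimmomatic 0.4, FastQC 0.10.1, MultiQC 0.9, STAR 2.5.0a, DESeq2 1.20.0 and the build mm10. The sources used here name no read counter or annotation, and whether strand was used is not given. The authors deposited a signal per gene, counts of reads over a size factor of the library. In all 6 columns 100% of values were whole multiples of 1 step (tolerance 1e-06 reads), so whole reads were recovered. The labels name no molecular identifiers. No column was left out.

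Each gene was tested with limma 3.58.1 in R 4.3.3 on log2(normalized count + 1) for 13028 genes whose mean was 10 or more, a filter that 9 of 9 members passed, with a variance trend, 2-sided, Benjamini-Hochberg at 0.05. The members, the 18 other gene lists and the tests were chosen with earlier results of these data known. Named were all members, up to 4 genes per list with the smallest p, 13 fixed genes and the 5 nearest in pattern, and not all eligible genes are described. Lists are described by counts and medians. For some lists the count of genes that passed in limma is not given above. It was 0 of 13 tested genes for astrocytes, 2 of 12 for oligodendrocytes (Mbp and Mobp, higher) and 0 of 6 for precursors. For neurons it was 0 of 9, for endothelial cells 0 of 8 and for mural cells 0 of 5. Of monocytes and neutrophils (2 tested), dendritic cells (5) and lymphocytes (2) 0 passed. Alternatives were other pseudocounts (0.5, 8), filters, scalings, weights, no trend, each library left out, an Xist class covariate, edgeR 4.0.16, limma-voom and DESeq2 1.42.0. The fit was run on simulated data, and recovery of changed genes was required only at the smaller simulated spread among libraries. That check does not cover spreads as wide as most members had in CNO. Coordinates and lengths are from GENCODE mouse release 21 (GRCm38, the assembly of mm10), and figures were drawn with matplotlib 3.10.9.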

Additional observations from a re-analysis of the deposited data

How the results depend on the processing

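The count of members past the threshold was 0 under all 21 alternatives, with adjusted p from 0.201 to 1. Trem2, Tmem119 and P2ry12 stayed below 0 in all of them, Trem2 from -2.09 to -1.11. Csf1r turned below 0 with quantile scaling (-0.81), TMM scaling (-0.0076), array weights (-0.10), limma-voom (-0.10) and total read scaling (-0.58), and Gpr34 above 0 with the Xist class covariate (0.10); the cause was not tested. TMM scaling moved the median of all tested genes from -0.89 to -1.004. With 1 library left out, fold changes ran from -0.26 to 0.60 for Csf1r, -0.81 to -0.13 for P2ry12, -1.39 to -0.25 for Tmem119, -0.53 to 0.49 for Gpr34, -0.53 to 0.33 for Cx3cr1, -1.08 to 0.010 for Olfml3, -0.89 to 0.13 for Siglech, -0.68 to 0.033 for Tyrobp and -1.69 to -1.11 for Trem2. Cx3cr1, Gpr34 and Olfml3 turned above 0 without CNO 2, Siglech and Tyrobp without CNO 1, Gpr34 and Siglech without saline 5, and Csf1r below 0 without CNO 3. Relative to other myeloid genes, ranges when 1 library was dropped were -0.0070 to 0.59 for Csf1r, -0.31 to -0.13 for P2ry12, -0.91 to -0.24 for Tmem119, -0.55 to 0.32 for Cx3cr1, -0.55 to 0.49 for Gpr34, -0.60 to 0.0053 for Olfml3, -0.39 to 0.11 for Siglech, -0.58 to 0.014 for Tyrobp and -1.46 to -0.83 for Trem2. The other reference list turned P2ry12 (0.0029), Cx3cr1 (0.16), Siglech (0.076) and Gpr34 (0.23) above 0.

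Over all genes, the 2 calls became 0, with 0 in the other lists instead of 2, in edgeR with the same filter, without a variance trend, with quantile or total read scaling, with a minimum mean of 50, with genes read in each library, and when 1 library was dropped (0 to 0). They became 11 with array weights, 16 (4 in the lists) in edgeR without a filter and in limma-voom, and 242 (5 in the lists) in DESeq2. Total read scaling and the filter on genes read in each library were chosen after seeing the data. No paired analysis was possible because CNO and saline libraries share a single replicate number. CNO 1, with 3908076 reads, limits low genes most, and every CNO library held reads of fewer genes than every saline library. With 3 libraries per group a difference as large as that of Trem2 did not pass.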
